A study of Mus musculus with 15 samples.

Results

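The response of MH-S cells, a mouse alveolar macrophage line, to SiO2 microrods was read in 6 of the 15 RNA-seq libraries of the series, the 3 from cells given the rods and the 3 from cells in medium alone (M0). Libraries were chosen by their labels, and every gene that passed the filter on low counts was tested. SiO2 cells received 0.1 mg/mL of rods built from silica nanoparticles, held by alginate and layered with protamine and carboxymethyl chitosan, for 24 h, and M0 cells received medium for the same 24 h. The other 9 libraries entered the model for its estimate of the spread: CaP cells with 0.1 mg/mL of calcium phosphate rods of the same coating, M1 cells with LPS (1 µg/mL) plus IFN-γ (20 ng/mL), and M2 cells with IL-4 (20 ng/mL), each for 24 h and in 3 libraries. All 5 groups were wells of 1 line at the same cell passage, and each rod well held its own particle batch, so that replicates differ by well and, for rods, by batch, and none stands for another passage or animal.

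Alveolar macrophages clear the air spaces by phagocytosis. An engulfed particle reaches a phagosome that fuses with lysosomes, where proton pumps of the V-ATPase type acidify the lumen and cathepsins digest what can be digested. Silica is known to resist this digestion, and in macrophages some of its forms are known for stress on the lysosome membrane and for release of cytokines of the interleukin-1 family. MMP12, the macrophage elastase, is a secreted metalloproteinase that cleaves elastin and is a usual product of alveolar macrophages.

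The total count was 39201265, 15489487 and 8459643 in M0 replicates 1 to 3 and 20244091, 12646926 and 24990730 in SiO2 replicates 1 to 3. Replicates differed by more than sampling noise, with a chi-square per gene of 14.5 to 117 over the 6 pairs. M0 replicate 3 and SiO2 replicate 2 stood apart from their groups on the second principal component, at -42.7 and -21.7, while the other M0 and SiO2 libraries lay between 3.58 and 14.2. M2 replicate 2 lay beside them at -43.9, and counts of changed genes are given below without these 3 libraries. Each of the 3 had the lowest total count of its group, which was 8594947 in M2 replicate 2. Whether depth set them apart was not tested. All 11 pan-macrophage markers were measured, with a summed level of 3530 to 4774 CPM (counts scaled to library size after TMM normalization) in M0 and 4049 to 4309 CPM in SiO2. Of 31 genes of tissue alveolar macrophages, 20 passed the filter and 7 (Car4, Chil3, Krt79, Ear1, Ear2, Cidec and Fabp1) had no count in any M0 or SiO2 library, and Marco reached at most 0.325 CPM. Some defining markers of this macrophage type were thus not detected in the line. Other genes of the list were abundant, such as Lpl (402 to 580 CPM in M0) and Cd9 (398 to 526 CPM in M0). The list summed to 1772 to 1819 CPM in M0 and 1896 to 2017 CPM in SiO2. Summed markers of epithelium, fibroblasts, T and NK cells and neutrophils stayed at or below 0.455 CPM in all 6 libraries. Those of B cells lay between 0.30 and 1.08 CPM, those of dendritic cells between 1.04 and 1.42 CPM, and endothelial ones at 0.69 to 1.24 CPM in M0 and 1.82 to 2.25 CPM in SiO2. The endothelial rise was that of Vwf, from 0.26 to 0.58 CPM in M0 to 1.47 to 1.59 CPM in SiO2. Pecam1 overlapped between the groups, at 0.12 to 0.78 CPM in M0 and 0.23 to 0.64 CPM in SiO2.

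Few genes passed the test of SiO2 microrods against M0, and most of those that passed were higher. A gene that did not pass may still have changed. Of 16654 genes tested, 44 (0.264%) were differentially expressed genes (DEGs), with 37 higher (0.222%) and 7 lower (0.0420%) in SiO2 than in M0. A DEG had a Benjamini-Hochberg adjusted p below 0.05 in edgeR's quasi-likelihood test and an absolute log2 fold change (log2FC) above 0.5. The genes that rose included macrophage elastase (Mmp12), the proton pump subunit Atp6v0d2, the endolysosomal protein Gpnmb and the secreted mediators Il1rn and Gdf15, and those that fell included the complement gene C1qb, the chemokine receptor Ccr2 and the integrin Itgal. The median absolute log2FC of the DEGs was 1.59, and that of the log2FC of all genes was -0.02. The 6 libraries did not overlap between groups for any DEG, beside 2993 genes (18%) of all tested. In the means of both groups 13 DEGs stayed below 5 CPM, 12 higher and 1 lower. At an unadjusted p below 0.05 there were 646 higher genes (3.88%) and 715 lower genes (4.29%), 1361 (8.17%) in all. DESeq2, the test of the study, called 130 genes (0.781%), 85 higher and 45 lower, and 42 of the 44 DEGs were among them. For Prss46 it gave no adjusted p, and ENSMUSG00000137263 missed the threshold. RNA was read from whole wells, so that fewer cells of a kind and less RNA per cell cannot be told apart.

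**Figure D1:**
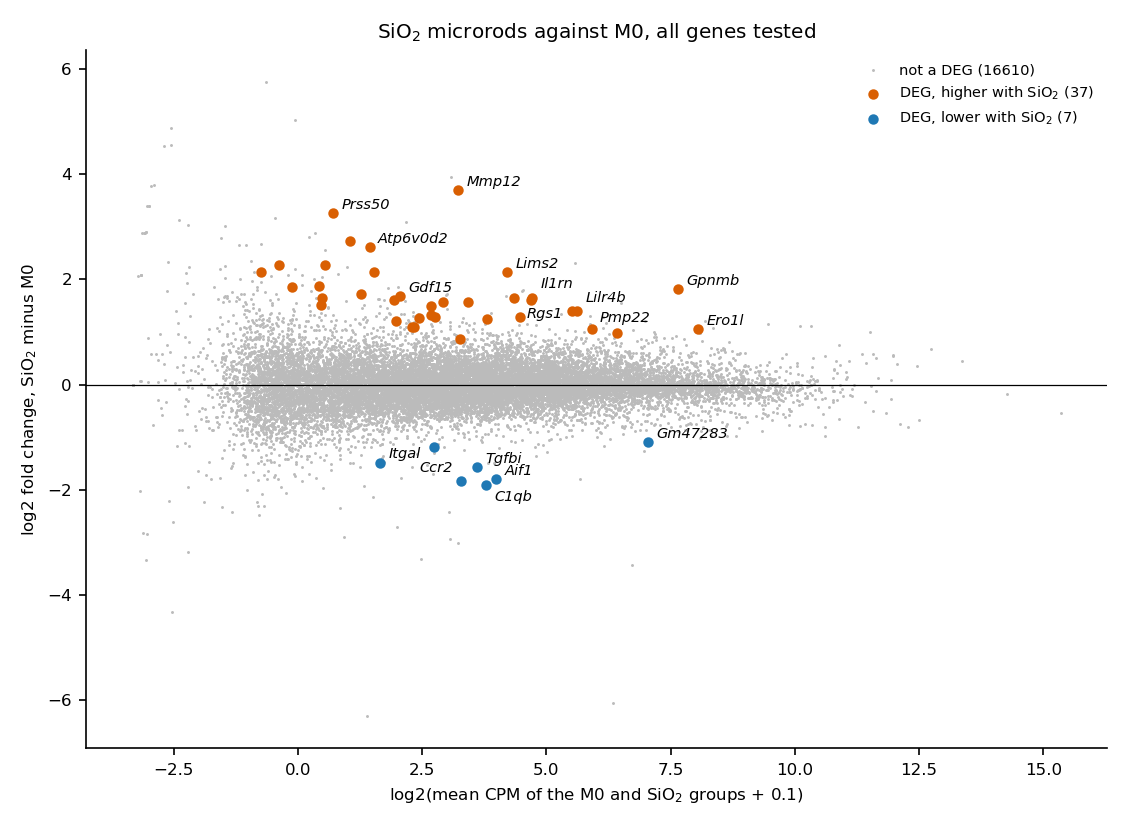
Log2 fold change of SiO2 against M0 (vertical axis) against the mean level of both groups as log2(CPM + 0.1) (horizontal axis) for 16654 genes; orange points are the 37 DEGs that were higher, blue points the 7 that were lower, grey points all others. Mmp12 stands at 3.70, and the grey points with larger changes did not pass the test.

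Several genes with a larger log2FC than Mmp12 in either direction did not pass. Tspan33, chosen after its values were seen, averaged 160 CPM in M0 with an SD of 275 and 2.34 ± 0.60 CPM in SiO2 (SD, n = 3), with a log2FC of -6.07 and an adjusted p of 0.349 in edgeR. Gm47234, chosen in the same way, had a mean of 15.6 CPM and an SD of 26.5 in SiO2. In both cases the SD exceeded the mean, as 1 library carried the level.

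Mmp12, the macrophage elastase, had the largest log2FC of all DEGs. Its level was 1.05, 1.69 and 1.39 CPM in M0 replicates 1 to 3 and 20.9, 13.8 and 17.0 CPM in SiO2 replicates 1 to 3. All SiO2 libraries lay far above all M0 libraries. The log2FC was 3.70 (SE 0.34, adjusted p = 0.000616, edgeR), a 13-fold rise, and in the 6 fits that each left out 1 library it stayed between 3.45 and 3.90 with an adjusted p of at most 0.0127. Levels in the other groups were 4.08 to 5.15 CPM in CaP, 0.10 to 0.95 CPM in M1 and 9.56 to 16.6 CPM in M2, so that the SiO2 range overlapped that of IL-4-treated cells. Mmp12 was also a DEG of CaP against the same M0 libraries (log2FC 1.83, SE 0.35, adjusted p = 0.0327, edgeR). Of 10 metalloproteinases and inhibitors tested, Mmp12 was the 1 DEG; the list had a median log2FC of 0.10. Among the other members, the sheddases Adam8 and Adam10 had an unadjusted p below 0.05, with a log2FC of 0.69 (SE 0.32) and -0.75 (SE 0.26).

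Prss50 and Prss46, genes of the serine protease family that were described after their values were seen, rose at low levels. Prss50 had 0.26, 0.52 and 0 CPM in M0 and 3.03, 2.42 and 2.93 CPM in SiO2, that is 10, 8 and 0 counts against 62, 32 and 74. No M0 library came near a SiO2 library. The fitted log2FC was 3.26 (SE 0.43, adjusted p = 0.00545). Prss46 went from a mean of 0.16 ± 0.07 to 0.83 ± 0.19 CPM (SD, n = 3), with a log2FC of 2.14 (SE 0.32, adjusted p = 0.00545). Without M0 replicate 1 the adjusted p of Prss50 was 0.122, and without SiO2 replicate 3 that of Prss46 was 0.0596.

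Promoters are shown for Mmp12 and the 3 other genes that were DEGs also in the model of 9 libraries with the largest log2FC and an entry in the promoter table, Lims2 aside, since these calls were made in both models. Each run is RefSeq sequence of GRCm38.p6 from 250 bases before to 50 bases after the annotated start, 5′ to 3′ on the strand of the gene.
Mmp12 (chr9:7344147-7344446, plus strand): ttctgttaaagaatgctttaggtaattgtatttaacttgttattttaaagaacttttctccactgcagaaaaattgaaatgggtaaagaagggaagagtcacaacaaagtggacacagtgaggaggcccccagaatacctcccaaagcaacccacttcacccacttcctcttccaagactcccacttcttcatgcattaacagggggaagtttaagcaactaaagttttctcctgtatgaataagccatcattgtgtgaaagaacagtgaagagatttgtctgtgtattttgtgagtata
4833415N18Rik (chr16:11779452-11779751, plus strand): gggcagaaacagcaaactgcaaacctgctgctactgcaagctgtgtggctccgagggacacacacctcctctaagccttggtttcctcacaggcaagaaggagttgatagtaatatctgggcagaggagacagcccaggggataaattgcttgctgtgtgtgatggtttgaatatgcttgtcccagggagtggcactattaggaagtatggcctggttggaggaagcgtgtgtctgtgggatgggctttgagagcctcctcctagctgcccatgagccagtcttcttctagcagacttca
Gdf15 (chr8:70632407-70632706, minus strand): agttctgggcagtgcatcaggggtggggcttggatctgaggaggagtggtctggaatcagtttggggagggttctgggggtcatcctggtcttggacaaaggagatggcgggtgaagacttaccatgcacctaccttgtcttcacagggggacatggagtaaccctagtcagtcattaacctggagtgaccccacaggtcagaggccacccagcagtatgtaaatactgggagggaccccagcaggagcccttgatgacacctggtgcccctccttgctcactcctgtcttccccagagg
4930447F24Rik (chr9:108133468-108133767, plus strand): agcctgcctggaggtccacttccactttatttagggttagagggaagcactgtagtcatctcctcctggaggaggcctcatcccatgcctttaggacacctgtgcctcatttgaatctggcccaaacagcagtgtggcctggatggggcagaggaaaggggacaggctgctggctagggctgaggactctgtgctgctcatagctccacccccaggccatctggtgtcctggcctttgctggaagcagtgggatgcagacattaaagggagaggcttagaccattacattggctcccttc
Both strands of these regions were searched for the AP-1 motif TGANTCA and for the E-box forms CACGTG and CATGTG that MITF and TFE factors are known to bind. None of the 4 regions held either motif, so that no letter stands in capitals; this says only that these letters are not in these 300 bases.

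Atp6v0d2 and Gpnmb, of the list of osteoclast-type and MITF/TFE genes, rose. Atp6v0d2 encodes a V-ATPase subunit known from osteoclasts and activated macrophages. It had 0.53, 1.11 and 0.69 CPM in M0 and 4.99, 4.31 and 4.12 CPM in SiO2. The lowest SiO2 library was well above the highest M0 library, and the log2FC was 2.61 (SE 0.36, adjusted p = 0.00545). Gpnmb, a transmembrane glycoprotein of the endolysosome that is known to mark lipid-laden and lysosome-stressed macrophages, had 64.6, 99.7 and 103 CPM in M0 and 311, 334 and 294 CPM in SiO2. The groups were far apart, and the log2FC was 1.82 (SE 0.29, adjusted p = 0.0209). The call of Atp6v0d2 was lost without M0 replicate 1 (adjusted p = 0.118), and that of Gpnmb without any 1 of the 6 libraries (adjusted p from 0.0565 to 0.169).

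Of 14 osteoclast-type and MITF/TFE genes, 12 had a log2FC above 0, and the median was 0.43. Atp6v0d2 and Gpnmb were the 2 DEGs of the list. Members named from here on for an unadjusted p below 0.05 were chosen after their values were seen. Dcstamp, which is needed for macrophage fusion, had 19.5 ± 3.4 CPM in M0 and 33.1 ± 3.5 CPM in SiO2 (SD, n = 3) and an adjusted p of 0.28. Ctsk, the collagen-degrading cathepsin K, went from 0.125 to 0.645 CPM on average (adjusted p = 0.10). Tnfrsf11a, the receptor for RANK ligand, had the opposite sign, with 33.5 and 22.9 CPM (log2FC -0.55, SE 0.18, adjusted p = 0.38).

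Other subunits of the V-ATPase showed a small shift in 1 direction with no DEG. All 16 had a log2FC above 0, from 0.10 to 0.95, with a median of 0.38, beside 47.5% of all genes above 0. Atp6v0d1, the widely expressed counterpart of Atp6v0d2, averaged 52.0 ± 14 CPM in M0 and 100.2 ± 7.1 CPM in SiO2 (log2FC 0.95, SE 0.27, adjusted p = 0.27). The abundant subunits Atp6v1g1 and Atp6v1f had a log2FC of 0.22 and 0.13. Without M0 replicate 1, the deepest of the 6 libraries, the median was 0.23.

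Of 42 lysosomal hydrolases and membrane proteins, 36 had a log2FC above 0, beside 47.5% of all genes, with a median of 0.29 and no DEG. Ctsd, the aspartic protease cathepsin D, went from 178 ± 54 to 411 ± 50 CPM (log2FC 1.21, SE 0.35, adjusted p = 0.28 in edgeR). Ctsb, the cysteine protease cathepsin B, went from 702 ± 208 to 1513 ± 139 CPM (log2FC 1.11, SE 0.30). The adjusted p of Ctsb was 0.245 in edgeR and 0.0498 in DESeq2. For Ctsb the M0 libraries had 487, 717 and 901 CPM and the SiO2 libraries 1423, 1674 and 1443 CPM. The groups did not overlap, but the spread within M0 was wide. Ctsh, an aminopeptidase, had the opposite sign (65.2 and 44.3 CPM, log2FC -0.55). At an unadjusted p below 0.05 there were 8 higher and 1 lower members, beside 3.88% and 4.29% of all genes.

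Among 32 genes of autophagy and of the response to damaged lysosomes, 21 had a log2FC above 0 and the median was 0.21, with no DEG. Lgals3, the galectin that gathers on broken endolysosomes, had 564, 1037 and 819 CPM in M0 and 1775, 1771 and 1705 CPM in SiO2. The SiO2 libraries lay close together and above M0, and the adjusted p was 0.133 in edgeR and 0.00856 in DESeq2. Sqstm1, the autophagy receptor p62, went from 135 to 255 CPM (log2FC 0.92, SE 0.29, adjusted p = 0.36). For 14 genes of iron transport and storage the median was 0.54, with 11 above 0 and no DEG; the ferritin chains Fth1 and Ftl1 had a log2FC of 0.67 (SE 0.19) and 0.45 (SE 0.22). Without M0 replicate 1 that median was 0.34 and without M0 replicate 2 it was 0.70.

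Secreted mediators among the DEGs included the inhibitor of interleukin-1 and ligands of the TGF-β family. Il1rn, which encodes the interleukin-1 receptor antagonist, had 10.4, 13 and 14.9 CPM in M0 and 38.7, 40.2 and 39.1 CPM in SiO2. The SiO2 libraries agreed closely and lay above all M0 libraries, with a log2FC of 1.64 (SE 0.22, adjusted p = 0.00545). Il1b had 0.82, 1.11 and 1.27 CPM in M0 and 2.54, 2.80 and 0.44 CPM in SiO2, so that the groups overlapped (log2FC 0.87, SE 0.53, adjusted p = 0.736), beside 359 to 450 CPM in M1. Of 13 inflammasome and gasdermin D genes, Il1rn was the 1 DEG, with 6 members above 0 and a median of -0.10. Nlrc4, an inflammasome receptor, had 51.7 and 25.2 CPM on average (log2FC -1.04, SE 0.44, adjusted p = 0.55). Il1a had no count in M0 and a mean of 0.14 CPM in SiO2, too low for a fold to be given.

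Gdf15, a stress-induced cytokine of the TGF-β family and a p53 target, had 1.74, 2.02 and 2.08 CPM in M0 and 6.12, 5.67 and 6.54 CPM in SiO2. Every SiO2 library lay above every M0 library, with little spread in either group, and the log2FC was 1.68 (SE 0.21, adjusted p = 0.00506). Adm, which encodes the vasodilator peptide adrenomedullin and is a target of HIF-1, rose from 10.2, 18.7 and 9.61 CPM to 42.7, 29.9 and 44.3 CPM, with wider spread and a log2FC of 1.60 (SE 0.29, adjusted p = 0.0447). Nodal, another ligand of the TGF-β family, and Pla2g2e, a secreted phospholipase A2, rose with a log2FC of 2.28 and 1.27. Nodal was low, with a mean of 0.50 CPM in M0 (15, 8 and 5 counts) and 2.23 CPM in SiO2. Pla2g2e had means of 3.20 and 7.41 CPM. Without M0 replicate 1 the adjusted p of Il1rn was 0.073 and that of Gdf15 0.0655. Adm kept its call only without M0 replicate 2, and Nodal and Pla2g2e lost theirs without any 1 library.

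No cytokine or chemokine of the inflammatory lists was a DEG that rose. Of 22 NF-kB genes that LPS raises, 15 had a log2FC above 0, with a median of 0.38 and no DEG. At an unadjusted p below 0.05, 5 of them were higher and 0 lower, beside 3.88% and 4.29% of all genes. DESeq2 called 2 members, beside 0.781% of all genes. Tnf had 19.3, 35.8 and 25.0 CPM in M0 and 37.6, 41.4 and 29.0 CPM in SiO2, with overlapping groups and an adjusted p of 0.763. Il6 had 2, 0 and 0 counts in M0 and 3, 6 and 0 in SiO2, beside 566 to 666 counts in M1. Nos2, the inducible nitric oxide synthase, had no count in M0 and 0, 4 and 3 counts in SiO2, beside 48 to 88 in M1. No fold is given for these 2 genes, whose counts in M0 and SiO2 were at or near 0.

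Among 19 chemokines and their receptors the median was 0.31, and the 1 DEG was the receptor Ccr2, which fell. Ccl4 had 112, 201 and 150 CPM in M0 and 273, 297 and 272 CPM in SiO2 (log2FC 0.86, SE 0.21, adjusted p = 0.168 in edgeR and 0.029 in DESeq2). Ccl3, Ccl7 and Ccl2, attractants of monocytes, had a log2FC of 0.48 (SE 0.18), 0.71 (SE 0.43) and 0.29 (SE 0.20). All SiO2 libraries lay above all M0 libraries for Ccl4, Ccl3 and Ccl7, while for Ccl2 the groups overlapped. The list of 18 genes that IL-4 is generally known to raise held no DEG, with 9 on either side of 0. Outside that list, DEGs of SiO2 that were also DEGs of M2 against M0, which shares the M0 libraries, did not all keep their direction. Mmp12 (log2FC 3.19 in M2) and Cd83 (log2FC 3.99 in M2) are examples that rose in both. Tsc22d1 and 4930447F24Rik, which rose with SiO2, fell in M2 (log2FC -1.93 and -1.86). C1qb, which fell with SiO2, rose in M2 (log2FC 1.96). Cd83 also rose in M1 against M0 (log2FC 4.03), so its rise was not particular to IL-4. Arg1 had 8.46 to 14.7 CPM in M0 and 10.6 to 17.9 CPM in SiO2, beside 1382 to 1724 CPM in M2, and Clec10a had 14.1 to 16.7 and 18.1 to 19.4 CPM, beside 185 to 214 CPM. Ccl24 had 0.66, 0.85 and 1.04 CPM in M0 and 0.24, 0.38 and 0.12 CPM in SiO2 (log2FC -1.79, SE 0.42, adjusted p = 0.119), the sign opposite to that in M2, where it had 20.3 to 27.2 CPM.

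Receptors and signalling proteins made up a further group of DEGs. Lilr4b, an immunoglobulin-like receptor of myeloid cells, had 24.4, 27.5 and 29.2 CPM in M0 and 69.5, 76.4 and 68.8 CPM in SiO2. Both groups were tight and well separated, and the log2FC of 1.41 (SE 0.14, adjusted p = 0.000616) held without each library in turn, with an adjusted p of at most 0.0127. It is nearly identical to Lilrb4a, which had 6.47 and 11 CPM on average (log2FC 0.79, SE 0.27, adjusted p = 0.40), so that the split of reads between the pair is uncertain. Of 19 Fc, TREM, LILR and CD300 receptors Lilr4b was the 1 DEG, and the median was 0.04. Trem1, an activating receptor, had 4.54 and 2.33 CPM (log2FC -0.89, SE 0.27, adjusted p = 0.30).

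Rgs1, which shortens signals of chemokine receptors through their G proteins, had 20.6, 30.1 and 25.2 CPM in M0 and 63.6, 69.8 and 65.2 CPM in SiO2 (log2FC 1.39, SE 0.19, adjusted p = 0.00545). All SiO2 libraries stood far above the highest M0 library. Lims2, an adaptor of integrin-linked adhesions, had 7.35, 7.48 and 5.33 CPM in M0 and 32.4, 31.3 and 26.8 CPM in SiO2. The log2FC of 2.14 (SE 0.25, adjusted p = 0.00303) held without each library in turn, with an adjusted p of at most 0.0265, while that of Rgs1 was lost without M0 replicate 1 (adjusted p = 0.0655). Hcar2, the receptor for niacin and hydroxybutyrate, Procr, the receptor for protein C, and Cd83, a surface protein of activated antigen-presenting cells, rose with a log2FC of 1.58, 1.28 and 1.51. Cd83 was low, with a mean of 0.67 CPM in M0 and 1.89 CPM in SiO2. Lat, a signalling adaptor best known from T cells, rose from 1.12 ± 0.52 to 4.49 ± 1.2 CPM (SD, n = 3, log2FC 2.15, SE 0.35, adjusted p = 0.0207). It was the 1 DEG of the list named for calcineurin/NFAT-responsive genes, with 16 tested and a median of -0.24. Whether Lat responds to calcineurin or NFAT in these cells was not tested. Calls of these last 4 genes were lost in at least 4 of the 6 fits without 1 library; Hcar2 and Procr kept theirs only without M0 replicate 2, Lat only without M0 replicate 2 or SiO2 replicate 3, and Cd83 in none.

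**Figure D2:**
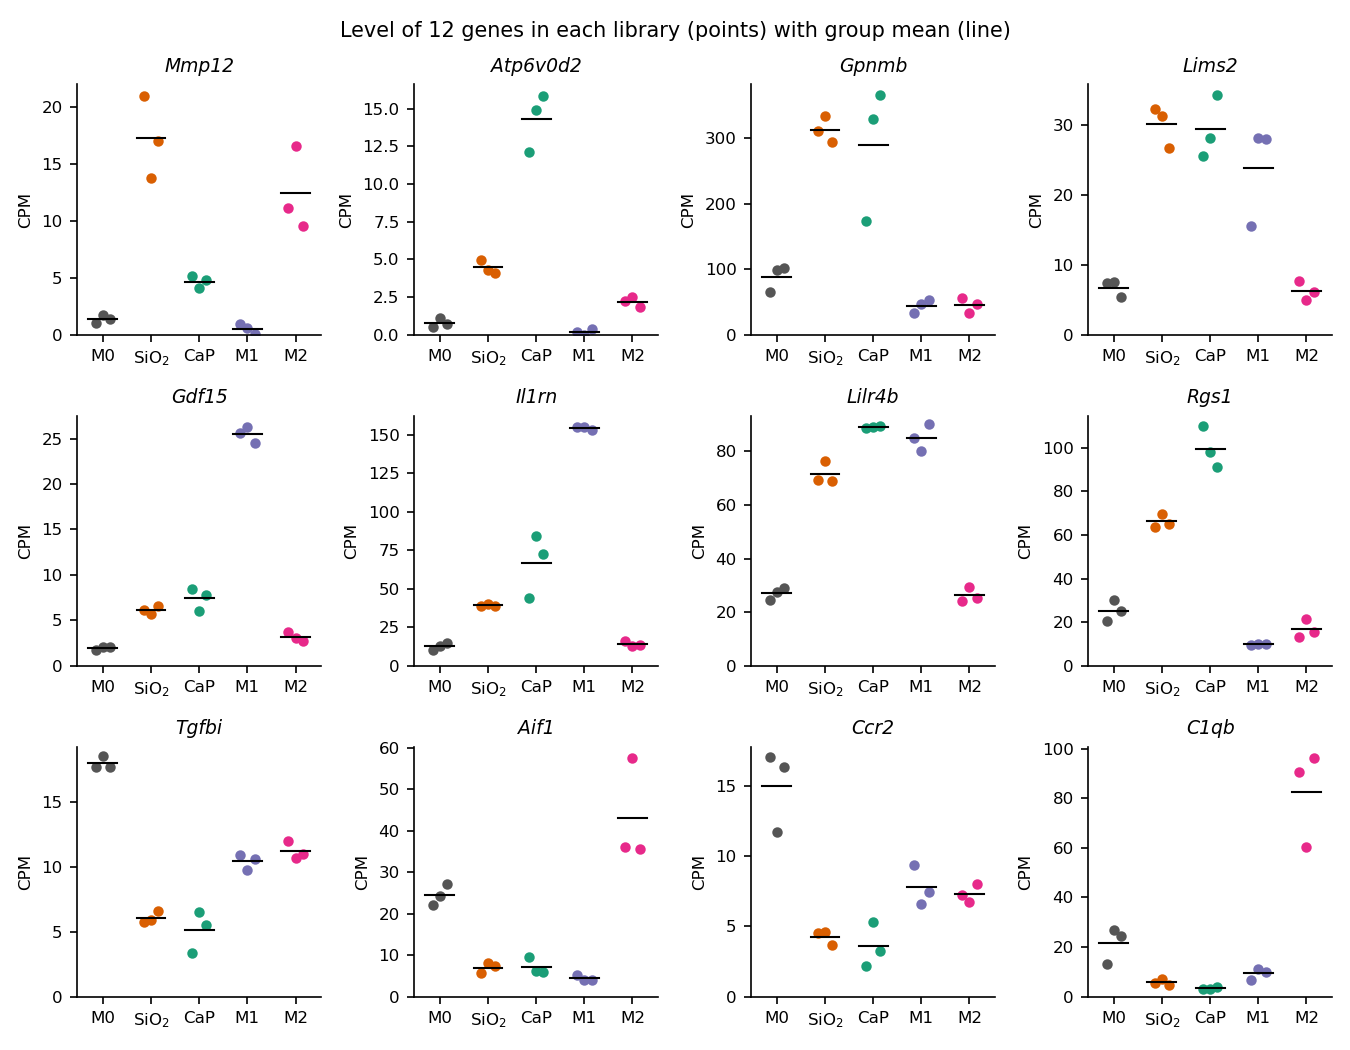
Level in CPM (vertical axes, from 0) of 12 genes in each of the 15 libraries by group (horizontal axes); points are libraries and black lines are group means. The 3 SiO2 libraries lie above the 3 M0 libraries for Mmp12 to Rgs1 and below them for Tgfbi, Aif1, Ccr2 and C1qb.

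Among interferon-stimulated genes Ifit3 and Ifit3b rose. Of 33 tested, 23 had a log2FC above 0, 11 were higher and 0 lower at an unadjusted p below 0.05, beside 3.88% and 4.29% of all genes, and the median was 0.30. Ifit3, an antiviral protein, had 0.47, 0.72 and 0.35 CPM in M0 and 1.71, 2.42 and 1.78 CPM in SiO2 (log2FC 1.88, SE 0.33, adjusted p = 0.0315). Its near-identical neighbour Ifit3b had 0.20 ± 0.08 and 1.14 ± 0.37 CPM (log2FC 2.27, SE 0.45, adjusted p = 0.0476), and reads may be split between them. Both DEGs were low in all 6 libraries, with groups that did not overlap, and both calls were lost without any 1 library. Usp18, a brake on interferon signalling, went from 3.02 ± 0.63 to 7.47 ± 1.2 CPM (log2FC 1.34, SE 0.26). Its adjusted p was 0.0564 in edgeR and 0.000423 in DESeq2. Irf7, a transcription factor of the pathway, went from 6.93 to 14.1 CPM (adjusted p = 0.49 in edgeR). Of 15 genes of MHC presentation none had an unadjusted p below 0.05, and the median was 0.19.

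Genes of hypoxia and glycolysis leaned upwards. Ero1a (listed as Ero1l), an oxidase that forms disulfide bonds in the endoplasmic reticulum, had 166, 156 and 197 CPM in M0 and 391, 335 and 352 CPM in SiO2. The groups were well apart, with a log2FC of 1.06 (SE 0.17, adjusted p = 0.0207), and the call was kept only without M0 replicate 3 among the 6 fits without 1 library. With Adm it made 2 DEGs of 27 glycolysis and HIF-1 genes, of which 23 had a log2FC above 0, with a median of 0.40. Slc2a1, the glucose transporter GLUT1, went from 184 ± 96 to 364 ± 57 CPM (log2FC 0.99, SE 0.45, adjusted p = 0.60). The median was 0.24 without M0 replicate 1.

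Ero1a was also the 1 DEG of 27 genes of the unfolded protein and integrated stress response, whose median was 0.02. Ddit3, the stress factor CHOP, had 14.3 ± 2.7 CPM in M0 and 27.8 ± 1.1 CPM in SiO2 (log2FC 0.97, SE 0.21). Its adjusted p was 0.105 in edgeR and 0.00519 in DESeq2. Ddit4, an inhibitor of mTORC1, had 2.12 and 6.60 CPM (log2FC 1.58, SE 0.56, adjusted p = 0.43 in edgeR). The chaperones of the heat-shock list had a median of 0.04 over 11 members, with no DEG. Of 22 NRF2-responsive redox genes 17 had a log2FC above 0, with a median of 0.26 and no DEG. Hmox1, which degrades heme, went from 81.8 ± 28 to 146 ± 5.7 CPM (log2FC 0.83, SE 0.25, adjusted p = 0.32).

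The lists of cholesterol synthesis and uptake, lipid droplets and fatty acid use, and cholesterol efflux held no DEG. Of 23 genes of cholesterol synthesis and uptake, 18 had a log2FC above 0 and the median was 0.33, with Mvd and Mvk of the mevalonate pathway at 0.99 (SE 0.39) and 0.86 (SE 0.26). Of 19 genes of lipid droplets and fatty acid use, 13 had a log2FC above 0 and the median was 0.23. Plin2, the coat protein of lipid droplets, had 99.4, 146 and 143 CPM in M0 and 233, 248 and 235 CPM in SiO2. These groups did not overlap, and the adjusted p was 0.0756 in edgeR and 0.000572 in DESeq2. Hilpda, an inhibitor of lipolysis at the droplet that is induced by hypoxia, went from 36.3 ± 10 to 80.4 ± 3.1 CPM (log2FC 1.15, SE 0.24). Its adjusted p was 0.0799 in edgeR and 0.0023 in DESeq2. For 10 genes of cholesterol efflux the median was 0.04.

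Further DEGs that rose have roles outside these groups. Car13 is a cytosolic carbonic anhydrase, Igf2bp2 a protein that binds mRNA, Tsc22d1 a leucine zipper factor, Snx7 a sorting nexin, Pmp22 a membrane protein of myelin and other cells, and Pcp4l1 a small protein related to a calmodulin regulator. Pcp4l1 had 12.1, 14.2 and 12.5 CPM in M0 and 32.4, 27.8 and 33.6 CPM in SiO2 (log2FC 1.28, SE 0.19, adjusted p = 0.0139), and it lost its call without M0 replicate 1 or 3 or SiO2 replicate 1 or 3. Car13 rose at a low level, from a mean of 0.65 CPM in M0 to 1.94 CPM in SiO2. Igf2bp2, Tsc22d1, Pmp22 and Snx7 rose with a log2FC of 1.57, 1.24, 1.06 and 0.86. Yipf7, Oit3, C77080 and Sccpdh also rose, with a log2FC of 1.49, 1.33, 1.09 and 1.09. Tsc22d1 kept its call only without M0 replicate 2 or SiO2 replicate 2, and the calls of Car13, Igf2bp2, Pmp22, Snx7, Yipf7, Oit3, C77080 and Sccpdh were lost without any 1 library.

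Transcripts with no assigned function also rose. 4930447F24Rik had 8.67, 9.37 and 11.5 CPM in M0 and 33.6, 26.4 and 31.6 CPM in SiO2, and 4833415N18Rik had 0.50, 0.33 and 0.81 CPM in M0 and 3.52, 3.25 and 3.33 CPM in SiO2. The groups lay far apart for both, with a log2FC of 1.65 (SE 0.18, adjusted p = 0.00137) and 2.73 (SE 0.38, adjusted p = 0.00545). The call of 4930447F24Rik held without each library in turn, and that of 4833415N18Rik was lost without M0 replicate 1 (adjusted p = 0.118). Gm17749, Gm43351, Brd3os and the unannotated ENSMUSG00000137263 and ENSMUSG00000139808 rose with a log2FC between 0.97 and 1.85. Brd3os lies opposite to another gene, and since the library protocol does not mark strand, its reads cannot be told apart from those of that gene. These 5 calls were lost without any 1 library, except that of ENSMUSG00000137263 without SiO2 replicate 2.

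Of the 44 DEGs, 29 had an entry in the promoter table, 24 higher and 5 lower. The AP-1 motif TGANTCA, on either strand, was present in 7 of the 24 higher genes (29.2%) and in 0 of the 5 lower genes, beside 2565 of all 32851 promoters of 300 bases (7.81%). For a DEG 1 promoter was taken, while the share of all counts every promoter in the table, of genes tested here or not. The shares are thus not on equal terms. The E-box forms were present in 2 of the 24 (8.33%), Lat and Il1rn, and in C1qb among the lower genes, beside 20.4% of all. The 8 AP-1 matches are printed because they are the motif that the higher genes held more often than promoters at large in this count, which was not tested. Each run shows the match in capitals with 10 bases on either side, from RefSeq GRCm38.p6, on the strand of the gene.
Ifit3b (chr19:34607859-34607885, plus strand): gagcaccagcTGATTCAtccccccccc
Ifit3 (chr19:34583463-34583489, plus strand): gagcaccagcTGATTCAcccccccccc
Gpnmb (chr6:49036516-49036542, plus strand): caggggcaagTGACTCAtgagcacgag
Il1rn (chr2:24336709-24336735, plus strand): tctgctagacTGAGTCAcgcctctgga
Procr (chr2:155751053-155751079, plus strand): cccaccccccTGACTCAgcggcgacct
Pla2g2e (chr4:138877845-138877871, plus strand): gctgttcctaTGACTCAtggtttgagg
Pla2g2e (chr4:138877958-138877984, plus strand): cagtagacggTGACTCAgagctgcagg
C77080 (chr4:129261433-129261459, minus strand): taagactggcTGAGTCAatccaggaag
Pla2g2e held 2 matches, 1 of them after its start, and the match of Gpnmb also lay after its start. Ifit3 and Ifit3b have nearly the same sequence around the match, so that they do not count as separate cases. Their matches hold T at the open position N of the motif, and those of the other genes hold C or G. A match is a description of letters and no evidence that a factor binds.

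The 7 genes that fell included C1qb, Ccr2, Aif1, Tgfbi and Itgal. C1qb, a chain of the complement recognition protein C1q, had 13.3, 26.8 and 24.3 CPM in M0 and 5.33, 7.19 and 4.72 CPM in SiO2. The groups did not overlap but M0 was wide, and the log2FC was -1.90 (SE 0.30, adjusted p = 0.0191). Ccr2, the receptor for CCL2 that guides monocytes, had 17.1, 11.7 and 16.3 CPM in M0 and 4.55, 4.61 and 3.65 CPM in SiO2 (log2FC -1.83, SE 0.28, adjusted p = 0.0184). Every SiO2 library was far below the lowest M0 library. C1qb kept its call without M0 replicate 1 or SiO2 replicate 2 and lost it without any other of the 6 libraries, and Ccr2 kept its call only without M0 replicate 2.

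Aif1, the actin-binding macrophage protein IBA1, had 22.1, 24.3 and 27.1 CPM in M0 and 5.68, 8.02 and 7.37 CPM in SiO2 (log2FC -1.80, SE 0.26, adjusted p = 0.00835). Tgfbi, an extracellular matrix protein that TGF-β induces, had 17.8, 18.5 and 17.7 CPM in M0 and 5.73, 5.90 and 6.58 CPM in SiO2 (log2FC -1.57, SE 0.21, adjusted p = 0.00545). Both had tight groups that lay far apart. The call of Aif1 was lost without SiO2 replicate 1 or 3 (adjusted p up to 0.0958) and that of Tgfbi without SiO2 replicate 1 (adjusted p = 0.0755). Tgfbi and Gdf15 were the 2 DEGs, in opposite directions, of 20 pro-fibrotic and tissue-remodelling genes, whose median was 0.20.

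Itgal, the integrin chain CD11a, had 3.71, 5.14 and 4.63 CPM in M0 and 1.22, 1.74 and 1.78 CPM in SiO2 (log2FC -1.48, SE 0.27, adjusted p = 0.0447). The SiO2 libraries were all below the M0 libraries, and Itgal was the 1 DEG of 11 macrophage integrins, whose median was -0.37. Itgam, CD11b, had 33.2 and 21.1 CPM on average (log2FC -0.65, SE 0.28, adjusted p = 0.56). Tmem91 and Gm47283, genes without a well-known role here, fell with a log2FC of -1.18 and -1.09. The calls of Itgal, Tmem91 and Gm47283 were lost without any 1 library.

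Complement was the list with the lowest median, -0.61 over 11 genes. Of these, 10 had a log2FC below 0, while 47.5% of all genes were above 0. At an unadjusted p below 0.05, 6 were lower, beside 4.29% of all genes. The other C1q chains, C1qa and C1qc, averaged 3.82 and 2.28 CPM in M0 and 0.984 and 0.703 CPM in SiO2 (log2FC -1.94, SE 0.60, and -1.63, SE 0.52), and neither passed. C3, the central complement protein, had 10.5 ± 3.0 and 4.70 ± 1.1 CPM (log2FC -1.18, SE 0.30). C5ar2, a receptor for the anaphylatoxin C5a, had 45.5 ± 16 and 18.6 ± 2.0 CPM (log2FC -1.29, SE 0.33). The adjusted p of both was 0.213 in edgeR, while in DESeq2 it was 0.0275 for C3 and 0.0402 for C5ar2. Over the alternatives run the list median stayed between -0.81 and -0.48. Of 13 C-type lectin receptors 9 had a log2FC below 0, with a median of -0.11 and no DEG. Mrc1, the mannose receptor, had 1.85 ± 0.59 and 0.525 ± 0.23 CPM (log2FC -1.79, SE 0.39). Its adjusted p was 0.105 in edgeR and 0.0040 in DESeq2.

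All 13 protein-coding genes of the mitochondrial genome had a log2FC below 0, from -0.87 to -0.30, with a median of -0.50 and no DEG. Of these, mt-Cytb, of complex III, had 7105, 6100 and 5678 CPM in M0 and 3360, 3886 and 3509 CPM in SiO2, and mt-Atp6, of the ATP synthase, 3029, 5050 and 2693 CPM against 2386, 2659 and 2536 CPM. For both the SiO2 libraries lay below all M0 libraries, and the adjusted p was 0.62 and 0.752 in edgeR. For mt-Cytb it was 0.577 in DESeq2 with all 15 libraries and 0.00363 in DESeq2 with 9. The mitochondrial share of all counts was 1.48% to 2.18% in M0 and 1.13% to 1.37% in SiO2, and without M0 replicate 2, which had the highest share, the list median was -0.20. The 42 nuclear genes of oxidative phosphorylation had a median of 0.02 and no member with an unadjusted p below 0.05.

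The remaining lists held few or no members past the threshold. Cell cycle and DNA replication genes had 20 of 40 on either side of 0, a median of 0.01 and no DEG, with Cdc20 and Birc5, its most abundant members by the rule for named genes, at a log2FC of 0.21 (SE 0.17) and -0.15 (SE 0.16). At an unadjusted p below 0.05, 0 of the 40 were higher and 4 lower, beside 3.88% and 4.29% of all genes. Top2a and Mki67, markers of dividing cells chosen after their values were seen, had a log2FC of -0.86 (SE 0.28, adjusted p = 0.367) and -0.75 (SE 0.25, adjusted p = 0.402). Of 22 cell death genes none had an unadjusted p below 0.05, and Bax and Bid had a log2FC of 0.30 and 0.12. Of 13 p53 targets Gdf15 was the 1 DEG, and the median was 0.00. Cytosolic ribosomal proteins had 33 of 40 below 0 with a median of -0.10, which was 0.02 without M0 replicate 2. The 36 genes of the actin cytoskeleton and phagocytic cup had a median of 0.12, with Actb and Capg at -0.55 (SE 0.27) and 0.13 (SE 0.23), and no DEG. AP-1, EGR and dual-specificity phosphatase genes had a median of 0.29 over 25 members with no DEG; Junb had 23.2, 69.0 and 30.8 CPM in M0 and 102, 133 and 66.4 CPM in SiO2, groups that overlapped, while Dusp4, a MAP kinase phosphatase, went from 8.27 ± 1.9 to 20.3 ± 2.7 CPM (adjusted p = 0.52).

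Scavenger and efferocytosis receptors had a median of 0.13 over 9 members, and Cd36 had a log2FC of 0.29. Metallothioneins and zinc transporters had a median of -0.23 over 13 members, with Mt1 at -0.02. Prostaglandin and leukotriene genes had a median of 0.07 over 16 members, with Alox5ap at -0.18, and purine receptors 0.18 over 10, with P2rx7 at 0.21. Polyamine and nitric oxide genes had a median of 0.08 over 16, with Oaz1 at 0.07. Growth factors and their receptors had -0.04 over 9, with Csf1r at -0.17, and serpins and acute-phase proteins 0.33 over 13, with Wfdc17 at 0.36. None of these 7 lists held a DEG. In all, 13 of the 40 lists held a DEG, 28 had a median above 0, and 15 of the 44 DEGs were in a list. For 13 lists, all with a median within 0.2 of 0, the sign of the median changed in at least 1 of 10 alternatives, so no direction is read from them.

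**Figure D3:**
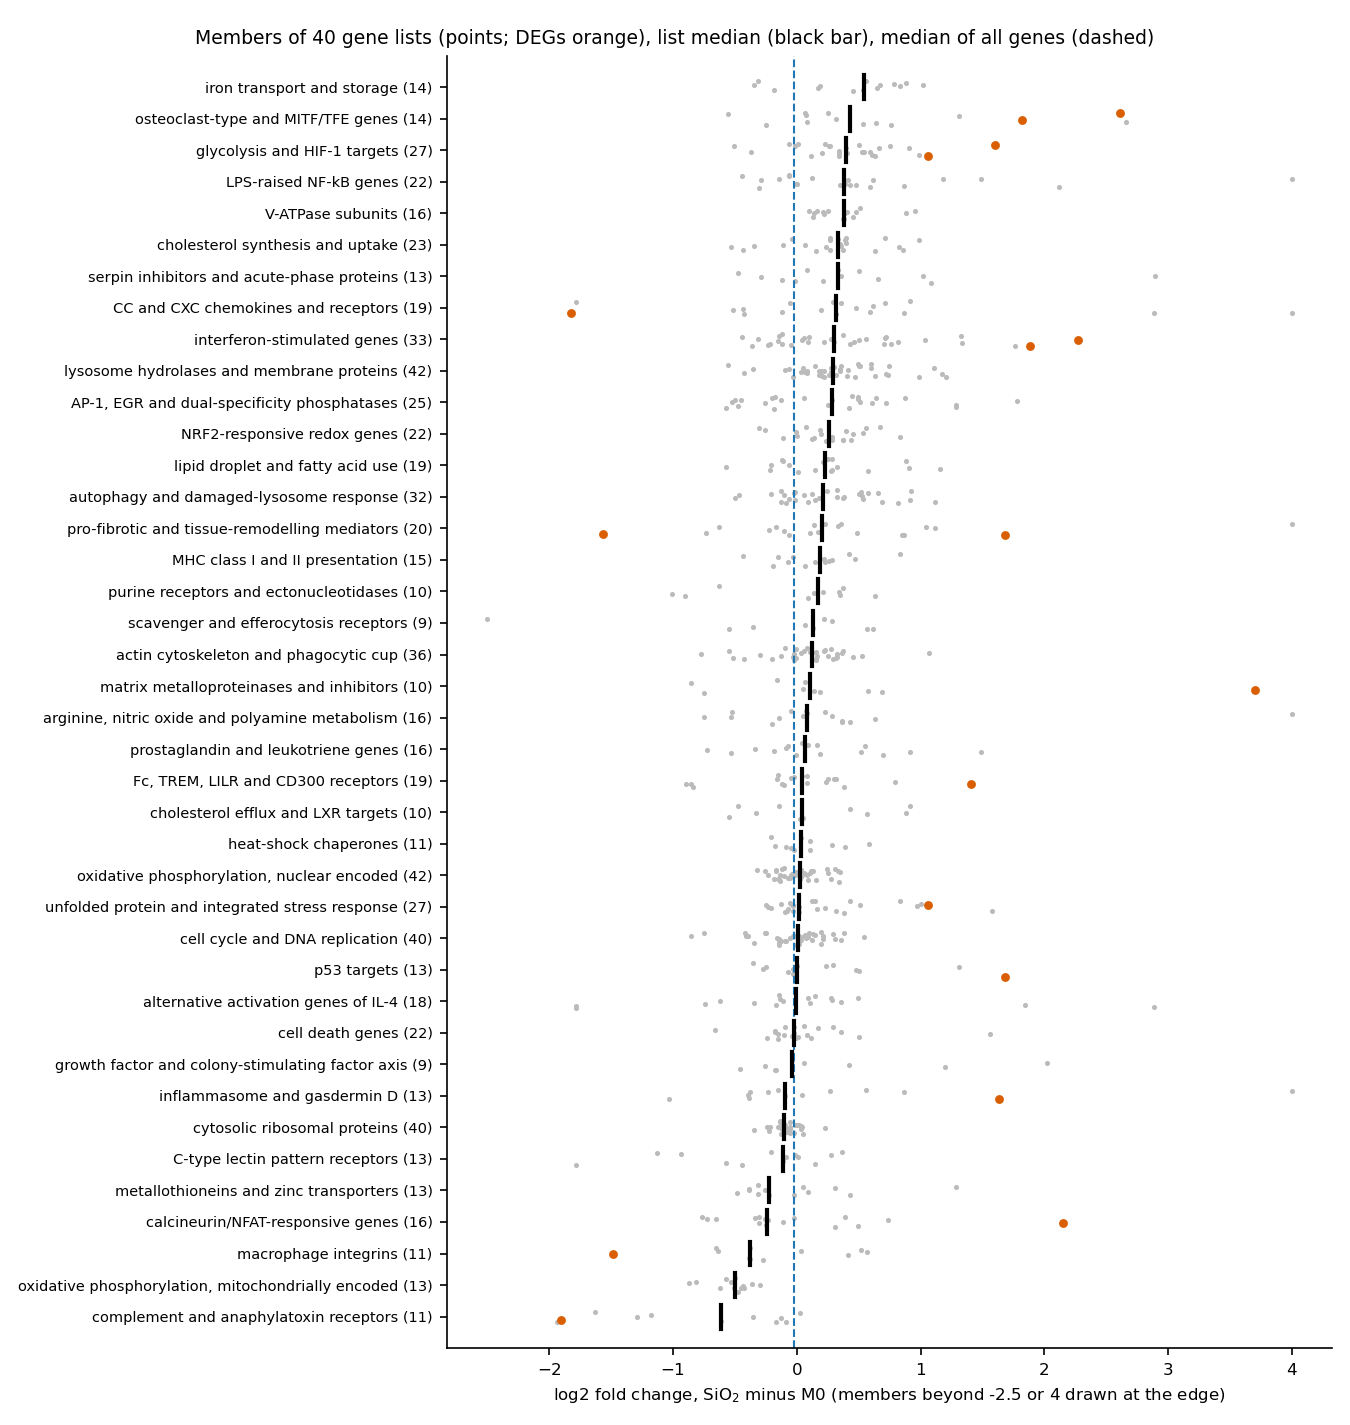
Log2 fold change of SiO2 against M0 (horizontal axis) for the members of 40 gene lists (rows, with the number tested in brackets); grey points are members, orange points DEGs, black bars list medians and the dashed line the median of all genes, -0.02. The list medians run from -0.61 for complement to 0.54 for iron transport and storage, and few members are DEGs.

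The rods were also set against CaP rods of the same coating at the same mass dose and time. By the study's account rods of unlike density differ in number at equal mass, so core material and rods per cell cannot be told apart here. The comparisons of each rod with M0 share the M0 libraries, so SiO2 and CaP were compared directly. Of 16654 genes, 3 (0.0180%) were DEGs between the rods, and all 3 were lower in SiO2. At an unadjusted p below 0.05 there were 277 genes (1.66%). None of the 44 DEGs of SiO2 against M0 was a DEG between the rods, 13 of them had an unadjusted p below 0.05, and 33 lay within 0.5 of 0 on the log2 scale, with standard errors of 0.13 to 0.35. Of the 37 higher DEGs, 19 were higher in SiO2 than in CaP.

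Mmp12 stood above its level with CaP and Atp6v0d2 below it, each just short of the threshold. Mmp12 had 20.9, 13.8 and 17.0 CPM in SiO2 and 5.15, 4.08 and 4.76 CPM in CaP (log2FC 1.87, SE 0.28, adjusted p = 0.0562), and Atp6v0d2 had 4.99, 4.31 and 4.12 CPM against 12.1, 14.9 and 15.8 CPM (log2FC -1.67, SE 0.27, adjusted p = 0.0562). Neither gene overlapped between the rods. The adjusted p of Mmp12 ranged from 2.51e-08 to 0.326 over the alternatives run and that of Atp6v0d2 from 2.98e-07 to 0.724, with the sign kept in each. DESeq2 called both, with 15 or with 9 libraries in the model, and so did edgeR without a filter, and edgeR with 9 libraries called Mmp12. Next to them, Ifit3b had a log2FC of 1.13 (SE 0.35), Il1rn -0.77 (SE 0.21) and Rgs1 -0.59 (SE 0.18), and none passed.

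Serpinb1a, an inhibitor of neutrophil-type serine proteases, had 0.83, 0.91 and 0.55 CPM in SiO2 and 8.92, 8.88 and 9.44 CPM in CaP (log2FC -3.61, SE 0.26, adjusted p = 2.19e-06). Rcan1, which inhibits calcineurin and is induced by it, had 7.98, 10.2 and 7.45 CPM in SiO2 and 33.8, 72.8 and 79.9 CPM in CaP (log2FC -2.87, SE 0.30, adjusted p = 0.00147). Spink5, an inhibitor of serine proteases, had 9.25, 10.2 and 9.15 CPM in SiO2 and 32.0, 27.3 and 29.7 CPM in CaP (log2FC -1.64, SE 0.18, adjusted p = 0.00147). All CaP libraries lay far above all SiO2 libraries. Against M0, with 0.29 to 0.46, 4.40 to 6.24 and 6.72 to 7.16 CPM, the log2FC of SiO2 was 1.09 (SE 0.39), 0.74 (SE 0.31) and 0.46 (SE 0.18), and none of the 3 was a DEG.

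**Figure D4:**
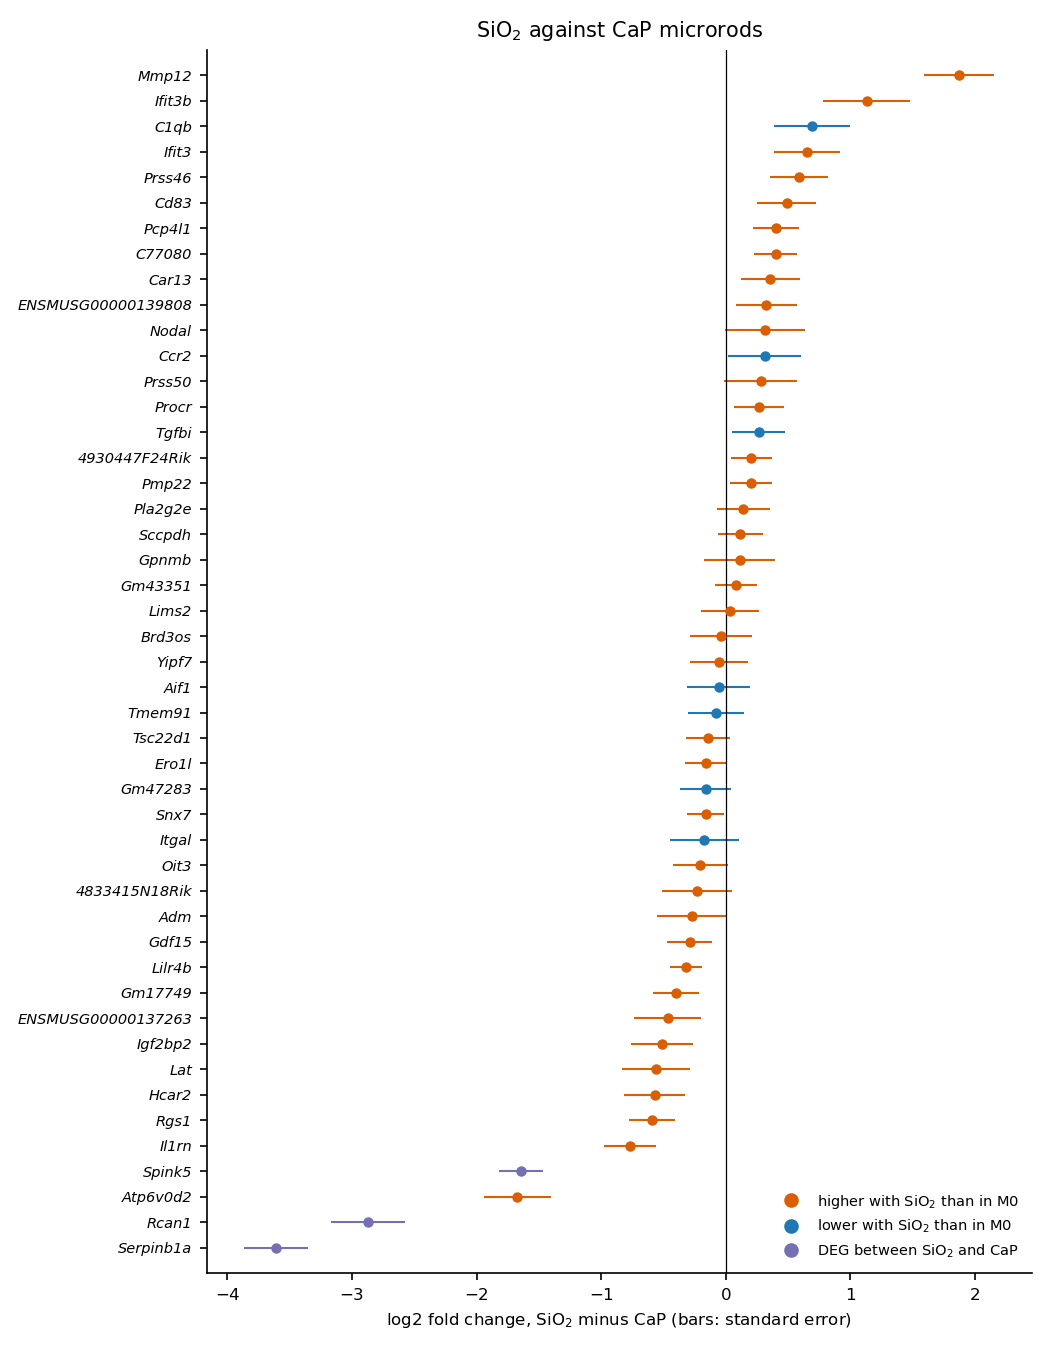
Log2 fold change of SiO2 against CaP microrods (horizontal axis, bars are standard errors) for the 44 DEGs of SiO2 against M0 (orange higher, blue lower) and the 3 DEGs between the rods (purple). Serpinb1a at -3.61, Rcan1 at -2.87 and Spink5 at -1.64 lie lowest with Atp6v0d2 at -1.67, Mmp12 at 1.87 lies highest, and most others lie near 0.

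Levels in the polarized cells show how the DEGs differ among themselves. Gdf15 and Il1rn had 24.5 to 26.3 and 153 to 155 CPM in M1, above the 5.67 to 6.54 and 38.7 to 40.2 CPM of SiO2, and 2.69 to 3.68 and 12.6 to 16.1 CPM in M2. Rgs1 and Gpnmb went the other way, with 9.63 to 10.1 and 32.8 to 53.1 CPM in M1, below M0. Lims2 had 15.6 to 28.2 CPM in M1, in part within its SiO2 range, and Lilr4b 80.3 to 90.1 CPM, above it. C1qb and Aif1, which fell with the rods, had 60.4 to 96.2 and 35.5 to 57.6 CPM in M2, above M0, while Tgfbi and Ccr2 had 10.7 to 12 and 6.71 to 8.06 CPM there. These comparisons use the same M0 libraries as that of SiO2 and are given as levels only.

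Most calls depended on the full set of libraries. Without 1 of the 6 M0 and SiO2 libraries the number of DEGs was between 8 and 28, against 44. Mmp12, Lilr4b, 4930447F24Rik and Lims2 were called in all 6 such fits, 8 genes in 5, Aif1 in 4, 10 genes in 1 or 2, and 21 genes in none. Without the 3 libraries that stood apart 15 genes were called, and 11 of the 44 DEGs were among them. In the model of the 9 M0, CaP and SiO2 libraries 10 of the 44 were DEGs, namely Mmp12, 4833415N18Rik, Atp6v0d2, Lims2, Gdf15, 4930447F24Rik, Lilr4b, Rgs1, Pcp4l1 and Aif1. In the model of the 6 M0 and SiO2 libraries alone, 1 of the 44, Mmp12, was a DEG. The sign of all 44 stayed the same in each alternative that tested the gene.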

How the data were processed

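RNA-seq was analysed for MH-S cells with SiO2 microrods (3 libraries) and in medium alone (M0, 3 libraries), beside 9 libraries of CaP, M1 and M2 cells. The authors prepared cDNA by the Smart-seq2 protocol and read it in pairs on an Aviti instrument. They ran nf-core/rnaseq with STAR and Salmon against Ensembl genes (GRCm39 in the submitters' processing notes) and deposited counts as whole numbers for 78317 gene identifiers, with no normalization. Salmon estimates counts, so they may be rounded estimates, and reads of near-identical genes were split there. All 15 columns were mapped by name and 0 were unused. Symbols came from GENCODE M21, used for names only, for 51487 identifiers. Promoters came from RefSeq (GRCm38.p6).

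Groups were compared with edgeR 4.0.16 in R 4.3.3 (filterByExpr, TMM, glmQLFit and glmQLFTest on all 15 libraries in 5 groups, no covariate) with Benjamini-Hochberg adjustment over 16654 genes, of which 15111 had a symbol. DEGs had an adjusted p below 0.05 and an absolute log2FC above 0.5. Levels are CPM with SD over 3 libraries, log2FC has its standard error from the fit, and p-values measure the spread between wells. With 3 libraries against 3, an exact permutation test cannot give a p below 0.1. Totals of 8459643 to 39201265 counts in the 6 libraries leave low genes least precise. No molecular identifiers were used, so precision judged from counts covers counting error alone. Principal components used the 500 most variable genes and log2 CPM with a prior count of 2.

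Alternatives were DESeq2 1.42.0, its size factors, no filter, at least 10 counts in every library, models of 9 or 6 libraries, a replicate block, thinning to the smallest library, other log2FC thresholds and leaving out each library. Leaving out the 3 libraries that stood apart, and all alternatives for Mmp12 and Atp6v0d2 against CaP, were added after seeing the data. The edgeR and DESeq2 tests were tested on simulated counts of 16318 genes for SiO2 against M0, with 200 genes changed. There edgeR recovered 16% of genes at a log2FC of 1 and 70% at 2, with 9 of 95 calls false, and DESeq2 39% and 83%, with 38 of 160 calls false. The counts were drawn in 1 run, gene by gene, with no deviation shared by the genes of a library. Changed genes had a mean above 1 CPM. The rates may thus not carry over to the real libraries.

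Named genes were Mmp12, the 15 highest and 10 lowest DEGs of at least 5 CPM with groups that did not overlap, DEGs in a list, the 2 most abundant members of a list without a DEG, genes named in the study's text, DEGs of the 9-library model and DEGs of SiO2 against CaP. Others are marked where they appear or given by direction and range. The 40 gene lists and 9 marker lists were written from general knowledge. The comparison, the lists and the rules were chosen with earlier results of these data known.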

Additional observations from a re-analysis of the deposited data

Results flagged for a closer look

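The response to SiO2 rods differed from that to CaP rods at 3 genes in a direct edgeR test of the difference. The log2FC of SiO2 against CaP was -3.61 (SE 0.26) for Serpinb1a, -2.87 (SE 0.30) for Rcan1 and -1.64 (SE 0.18) for Spink5, and each was lower in 3 of 3 SiO2 libraries than in any CaP library. Over the alternatives run the adjusted p was at most 0.011 for Serpinb1a, 0.127 for Rcan1 and 0.0834 for Spink5, the last pair with the model of only the 6 SiO2 and CaP libraries. Groups of 3 are too small for a test of single outlying libraries.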

How the results depend on the processing

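The number of DEGs of SiO2 against M0 depended on the test, the filter and the libraries, while no log2FC of a DEG changed sign. Against 44 DEGs (37 higher, 7 lower), DESeq2 called 130 (85 and 45) and, with 9 libraries, 134 (90 and 44), and edgeR without a filter called 205 (118 and 87). Fewer were called by edgeR with 9 libraries (10, 9 and 1), with only the 6 libraries (1, 1 and 0), after thinning to the smallest library (20, 14 and 6) and without the 3 libraries that stood apart (15, 14 and 1). Leaving out 1 library gave 8 (without M0 replicate 1) to 28 (without M0 replicate 2) DEGs, 5 to 18 higher and 0 to 10 lower. The lower DEGs numbered 0 without SiO2 replicate 1, and without M0 replicate 2 there were 18 higher and 10 lower. DESeq2's size factors gave 39 (33 and 6), at least 10 counts in every library 41 (31 and 10), and log2FC thresholds of 0 and 1 gave 44 and 42. Genes with fewer than 10 counts in any library, Mmp12 among them, could not be given a value under that filter.

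Against CaP, 3 DEGs (0 higher, 3 lower) became 17 (2 and 15) with DESeq2, 16 (3 and 13) with DESeq2 on 9 libraries, 104 (24 and 80) without a filter and 4 (1 and 3) with edgeR on 9 libraries. All other settings, with the replicate block and without each SiO2 or CaP library, gave 2 to 4.

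A replicate block gave 19 DEGs of SiO2 against M0, 15 higher and 4 lower. The replicate numbers are not taken to pair the wells, since deviations of same-numbered M0 and SiO2 libraries correlated at 0.479, -0.334 and -0.534, and not every library correlated best with its own number: M0 replicate 3 did so with SiO2 replicate 2, at 0.729.

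On counts simulated for SiO2 against M0, edgeR recovered 16% of genes changed by a log2FC of 1 and 70% at 2, so a missing call does not show that a gene kept its level. Causes of the changes with the settings were not tested.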

Other observations

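DESeq2, but not edgeR, called 17 of the 756 distinct list members tested in SiO2 against M0, 11 higher and 6 lower, on simulated data with more false calls than edgeR. Members not yet described include Ier3, an early stress gene (10.3 ± 6.9 CPM in M0, 35.3 ± 1.1 CPM in SiO2, SD, n = 3, adjusted p = 0.0329 in DESeq2 and 0.241 in edgeR), Plk2, a kinase among p53 targets (33.9 ± 9.5 and 83.5 ± 10 CPM, 0.0241 and 0.206), and Irg1, which makes itaconate (3.01 ± 1.0 and 6.83 ± 1.6 CPM, 0.00523 and 0.128). The lower ones include the lectins Clec4a1 (4.34 and 1.91 CPM) and Clec4a3 (13.1 and 6.83 CPM), and Amd1 of polyamine synthesis (303 and 181 CPM).

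Bhlhe40 and Maf, transcription factors on the list of alveolar macrophage genes that were chosen after their values were seen, had no edgeR call. Bhlhe40 averaged 22.3 ± 2.4 CPM in M0 and 56.2 ± 3.1 CPM in SiO2 (log2FC 1.34, SE 0.34, adjusted p = 0.22). Maf averaged 1.07 ± 0.37 and 0.447 ± 0.05 CPM (log2FC -1.41, SE 0.41, adjusted p = 0.28).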
